A study of Rattus norvegicus with 6 samples.

Results

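Cyclins, cyclin-dependent kinases (CDKs), CDK inhibitors, E2F transcription factors and the retinoblastoma-like pocket proteins were examined in INS-1 cells, an insulin-secreting line from a rat insulinoma. Members were taken by gene symbol: cyclin symbols that begin with Ccn and a letter, numbered CDKs, symbols beginning with Cdkn1, Cdkn2 or Cdkn3, numbered E2f genes, and Rb1, Rbl1 and Rbl2. Counts were summed over the transcript rows of each gene. Of 57 genes found in this way, 54 had at least 10 counts over the 6 libraries, out of 16803 such genes in the whole table. Rb1, E2f7 and Cdk15 were below that minimum.

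RNA sequencing covered 3 libraries of INS-MOCK cells, labelled wild type, and 3 of INS-SMA cells, labelled as overexpressing α-SMA (alpha smooth muscle actin, an actin of smooth muscle and myofibroblasts). A lentivirus was used to make the α-SMA cells. Whether the INS-MOCK cells received a virus is not stated, nor is the number of clones. All cells were of passage 7 to 15 and grew in RPMI medium with fetal bovine serum and antibiotics. The design text calls the libraries of a group biological replicates. The study asked which genes differ in expression when INS-1 cells overexpress α-SMA.

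The libraries held 24719503 to 39608609 counts, and 3 counts, taken as the floor of detection, were 0.117 to 0.180 CPM (counts per 1000000, on library sizes scaled by TMM, the trimmed mean of M-values). Human ACTA2, the overexpressed sequence, had 103 to 167 counts in the INS-MOCK libraries and 941093 to 1141322 in the INS-SMA libraries. INS-MOCK replicate 1 stood apart in the interferon-induced gene Rsad2, with 252 counts against 28 and 35, and the INS-SMA libraries had 61891 to 95414. Rises and falls of marker genes are calls of the test described below, which over all tested genes gave 28.1% higher and 27.0% lower. Of 11 insulinoma markers, 10 fell and 1 did not pass, with a summed level of 38442 to 41274 CPM in INS-MOCK and 3693 to 4559 CPM in INS-SMA. Of 7 fibroblast and mesenchymal markers among the named genes, 1 rose, 2 fell and 4 were too low to test, with Col1a2, Dcn and Lum at 0 counts in INS-MOCK. Their summed level was 60.4 to 86.5 CPM in INS-MOCK and 19.7 to 33.3 CPM in INS-SMA. Most of this sum was Thy1 (mean 54.8 CPM in INS-MOCK and 11.7 in INS-SMA) and Pdgfra (15.3 and 8.24), the genes that fell. Col3a1, the rise, had means of 0.0698 and 2.84 CPM, and it had enough counts for the test only through INS-SMA. Dcn was at 0.0918 to 0.421 CPM and Lum at 0.300 to 0.467 CPM in INS-SMA. Of 5 immune and endothelial markers among the named genes, Ptprc, Cd14 and Cdh5 were at 0 counts in INS-MOCK. Their summed level was 0.124 to 1.12 CPM in INS-MOCK and 1.79 to 2.40 CPM in INS-SMA, with 1 rise (Ptprc), 1 gene that did not pass and 3 too low to test. Ptprc, too, had enough counts for the test only through INS-SMA. The part of other cell types in the results below was not tested.

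A CDK is active only with a cyclin bound to it. D-type cyclins with Cdk4 or Cdk6, and then E-type cyclins with Cdk2, phosphorylate the pocket proteins, which frees E2F factors to switch on genes of DNA replication. Cyclin A and cyclin B with Cdk1 then drive cells through G2 and mitosis. CDK inhibitors of the CIP/KIP and INK4 families hold these kinases back. In beta cells, which divide rarely after early life, Cdk4 and cyclin D2 are known for their part in growth of the cell mass. Many other cyclins and CDKs act in transcription and not in the cell cycle.

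The kinase genes Cdk1, Cdk2 and Cdk4 and the cyclin genes Ccna2, Ccnb1 and Ccne2 were lower in INS-SMA, whereas the inhibitor gene Cdkn1a and the atypical cyclin gene Ccng1 were higher. A change was called at an adjusted p under 0.05 in edgeR's quasi-likelihood test, with Benjamini-Hochberg adjustment over the 13363 genes tested. Among 49 members with enough counts for the test, 13 rose (26.5%), 16 fell (32.7%) and 20 did not pass. Over all tested genes 28.1% rose and 27.0% fell, so these shares were near the background. At least 2-fold rises were called for 6 members (12.2%, against 15.6% of all tested genes) and at least 2-fold falls for 11 (22.4%, against 12.5%). Ccnb3 is counted among these rises although it had at most 2 counts in any INS-MOCK library and passed the low-count filter only through INS-SMA. Without it 12 members rose, 5 of them at least 2-fold. The groups did not overlap in 30 members (61.2%), against 65.3% of all tested genes. The median log2 fold change was -0.24 for members and 0.03 for all tested genes. Because whole cultures were sequenced, fewer dividing cells and less of a transcript per dividing cell cannot be told apart.

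**Figure D1:**
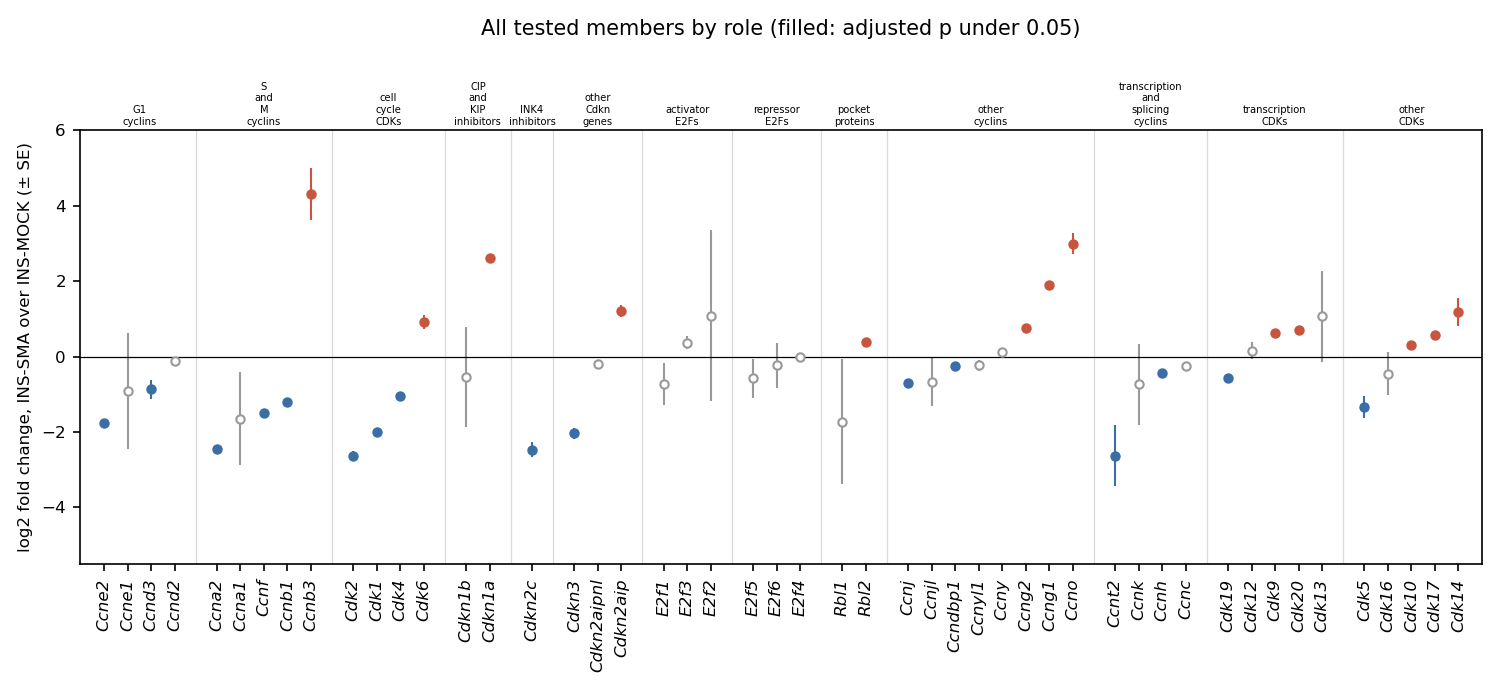
Log2 fold change of INS-SMA over INS-MOCK with its standard error for the 49 tested members, grouped by role along the horizontal axis. Filled red points passed the test as higher (13), filled blue points as lower (16), and open grey points did not pass (20). The longest error bar is that of E2f2, which had INS-SMA libraries at 0, and Ccnb3 is plotted from at most 2 counts in an INS-MOCK library.

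Mitotic kinase and cyclin transcripts were among the clearest falls. Cdk1, the kinase of mitotic entry (chromosome 20, 20576377 to 20591549, in the coordinates of the table, for which rn6 is the only rat build named), was at 265, 253 and 258 CPM in the INS-MOCK libraries and at 60.3, 65.9 and 67.7 CPM in the INS-SMA libraries. Every INS-SMA library was far below every INS-MOCK library, and the log2 fold change was -2.001 (SE 0.06 and, in edgeR, adjusted p = 7.04e-06). Ccna2, which encodes cyclin A2 of S phase and G2 (chromosome 2, 123275881 to 123282214), was at 174, 170 and 158 CPM in INS-MOCK and at 29.98, 29.4 and 33.1 CPM in INS-SMA. The groups were again apart, with a log2 fold change of -2.44 (SE 0.07 and, in edgeR, adjusted p = 7.45e-06). The Ccna2 locus lies within Exosc9 on the opposite strand over all 6334 of its bases. The strand setting of the counting is not given in the sources used here, so reads of these genes may be mixed, and Exosc9 had 1764 to 2028 counts in INS-MOCK and 641 to 1300 in INS-SMA.

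Ccnb1, the gene of cyclin B1, also fell. It was at 123, 134 and 121 CPM in INS-MOCK and at 49.0, 58.4 and 57.2 CPM in INS-SMA, without overlap, a log2 fold change of -1.20 (SE 0.09 and, in edgeR, adjusted p = 1.32e-04). Within each library the ratio of Ccna2 counts to Ccnb1 counts was 1.26 to 1.42 in INS-MOCK and 0.503 to 0.612 in INS-SMA. This difference of -1.24 on the log2 scale had p = 0.1 in an exact permutation test, two-sided, the smallest that 3 against 3 can give. The 4 such ratios computed, for pairs chosen after their values were seen, all had that p, and it stayed 0.1 when adjusted over the 4. Ccnf, an F-box protein gene whose product marks proteins for destruction, was at 59.9, 63.2 and 64.4 CPM in INS-MOCK and at 22.4, 19.96 and 24.7 CPM in INS-SMA. It fell by 1.48 on the log2 scale (SE 0.10).

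The sequences before the start sites of Cdk1, Ccnf and Ccnb1 are shown because these genes fell together and carry, in part, the promoter letters known from mitotic genes. Each is the 250 bases before the RefSeq start in the GRCr8 build, 5′ to 3′ on the gene's strand. Capitals mark the CHR element (TTTGAA), the CCAAT box (CCAAT) and an E2F site (TTTCCCGC, TTTGGCGC, TTTCGCGC or TTTGCCGC), on either strand. The windows lie at chr20:19265043-19265292 on the plus strand for Cdk1, at chr10:13783670-13783919 on the minus strand for Ccnf and at chr2:33655226-33655475 on the minus strand for Ccnb1.
Cdk1: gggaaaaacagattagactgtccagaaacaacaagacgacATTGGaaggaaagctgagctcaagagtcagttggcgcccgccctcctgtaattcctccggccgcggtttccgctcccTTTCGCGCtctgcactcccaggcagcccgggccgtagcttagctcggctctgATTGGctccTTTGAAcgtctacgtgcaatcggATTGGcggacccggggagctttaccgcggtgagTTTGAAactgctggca
Ccnf: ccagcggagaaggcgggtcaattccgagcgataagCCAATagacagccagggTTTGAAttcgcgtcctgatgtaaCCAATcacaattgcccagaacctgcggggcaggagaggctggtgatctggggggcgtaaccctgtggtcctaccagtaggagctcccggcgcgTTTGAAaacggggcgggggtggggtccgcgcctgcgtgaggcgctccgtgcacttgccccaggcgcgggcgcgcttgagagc
Ccnb1: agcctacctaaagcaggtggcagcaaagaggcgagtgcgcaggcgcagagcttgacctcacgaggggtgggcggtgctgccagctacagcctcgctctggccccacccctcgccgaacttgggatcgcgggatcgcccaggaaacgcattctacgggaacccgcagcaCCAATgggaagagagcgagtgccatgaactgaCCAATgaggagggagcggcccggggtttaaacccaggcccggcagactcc

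The Cdk1 window held CHR letters that begin 72 and 16 bases before the start, 3 CCAAT boxes on the opposite strand and an E2F match 133 bases before the start. Ccnf held 2 CHR matches and 2 CCAAT boxes, and Ccnb1 held CCAAT boxes that begin 82 and 50 bases before the start and no TTTGAA. A RefSeq window was found for 41 of the 54 members, and Ccna2 and Ccne2, which fell, were without one. Of 14 members with a window that fell, 10 had a CCAAT box and 3 had CHR letters (Ccnf, Cdk1 and Cdkn3, each with both motifs). Cdk4, Cdk5, Cdk19 and Cdkn2c also fell, and their windows held none of these letters. Of 10 members with a window that rose, 3 had a CCAAT box and 0 had CHR letters. Of 14 tested members with a window that did not pass, 6 had a CCAAT box and 2 had CHR letters (Cdk16 and E2f3, each with both motifs). An E2F match was found in 1 member that fell (Cdk1), 0 that rose and 2 that did not pass (E2f3 and Rbl1). CHR letters and E2F matches were thus not confined to members that fell. Over all 27457 genes with such a window, 36.1% had a CCAAT box, 17.2% had CHR letters, 6.32% had both, and 1.91% had an E2F match. These matches describe the letters and do not show that a factor binds there.

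Cdk2, the partner of cyclins E and A, had the largest called fall of all members with a fold change of -2.63 on the log2 scale (SE 0.13 and, in edgeR, adjusted p = 3.08e-05). Ccnt2 had the same rounded value with a larger error. The Cdk2 level was 43.7, 41.0 and 44.1 CPM in INS-MOCK and 5.89, 7.25 and 7.58 CPM in INS-SMA. Cdk4, the partner of D-type cyclins, was at 265, 277 and 277 CPM in INS-MOCK and at 123, 137 and 138 CPM in INS-SMA, so it fell by 1.04 on the log2 scale (SE 0.06). Tspan31 overlaps Cdk4 by 168 bases on the opposite strand, with 2861 to 3009 counts in INS-MOCK and 1730 to 2738 in INS-SMA. The INS-SMA libraries were below all INS-MOCK libraries for both genes. Counts of Cdk1 per count of Cdk4 were 0.913 to 1.00 in INS-MOCK and 0.480 to 0.492 in INS-SMA (p = 0.1 in the exact two-sided test by permutation), with every INS-SMA library below every INS-MOCK library. Cdk6, the other partner of D-type cyclins, rose from a low level, at 2.27, 2.60 and 2.74 CPM in INS-MOCK and 4.75, 4.22 and 5.41 CPM in INS-SMA (log2 fold change 0.92, SE 0.20).

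**Figure D2:**
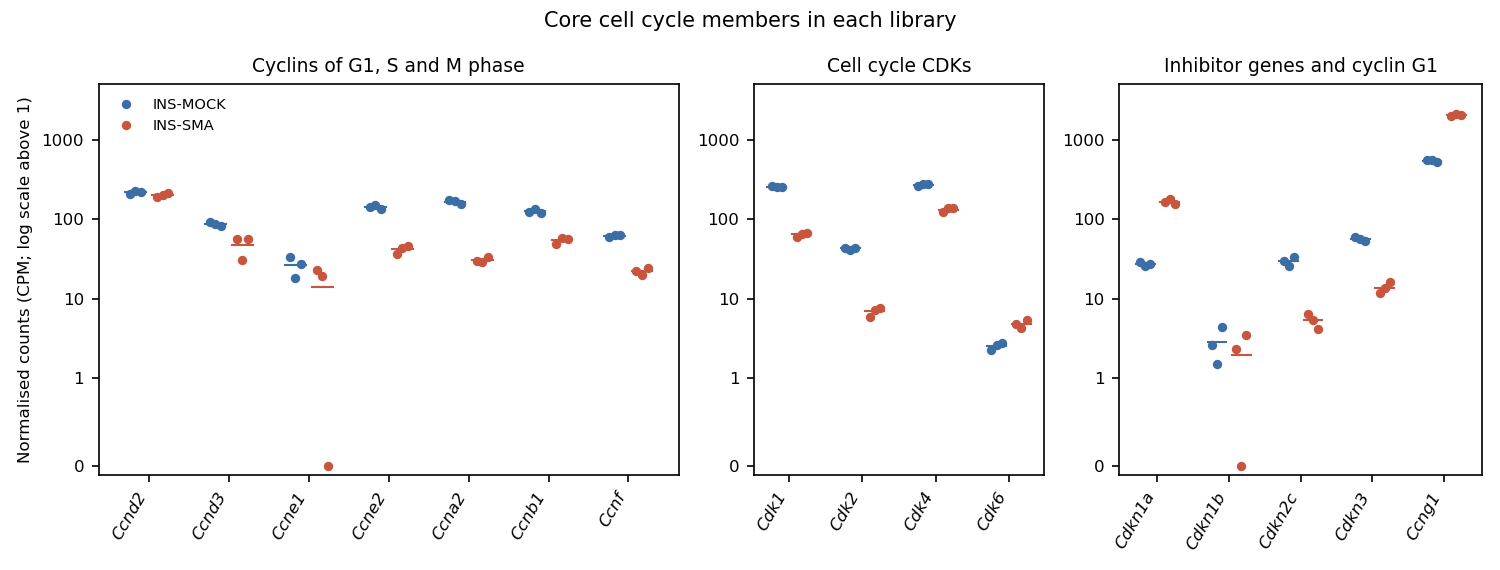
Normalised counts in CPM (vertical axis, logarithmic above 1 and linear below) of cell cycle cyclins, CDKs and inhibitor genes in each library. Points are libraries, blue for INS-MOCK and red for INS-SMA with 3 each, and lines are group means. Cdk1, Cdk2, Cdk4, Ccna2, Ccnb1, Ccne2 and Ccnf are lower in all INS-SMA libraries, Cdkn1a and Ccng1 are higher in all, and Ccne1 and Cdkn1b each have 1 INS-SMA library at 0.

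Of 4 G1 cyclins tested, Ccne2 and Ccnd3 fell, and Ccne1 and Ccnd2 did not pass. Among all tested genes 28.1% were higher and 27.0% lower, and 4 genes are too few to set against these shares. Ccne2, a cyclin of the G1 to S transition, was at 144, 150 and 135 CPM in INS-MOCK and at 36.2, 43.2 and 46.8 CPM in INS-SMA, a log2 fold change of -1.77 (SE 0.11 and, in edgeR, adjusted p = 7.01e-05). The opposite-strand gene Ints8 overlaps Ccne2 by 521 bases, and it had 1905 to 2102 counts in INS-MOCK and 15 to 124 in INS-SMA. Ccne1 was at 33.9, 18.3 and 27.1 CPM in INS-MOCK and at 22.7, 19.6 and 0 CPM in INS-SMA, and it did not pass (log2 fold change -0.91, SE 1.54, adjusted p = 0.658).

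Ccnd2, the gene of cyclin D2, was at 211, 229 and 219 CPM in INS-MOCK and at 192, 202 and 214 CPM in INS-SMA, with overlap between the groups. Its log2 fold change of -0.12 (SE 0.05 and, in edgeR, adjusted p = 0.119) did not pass, except with mitochondrial genes left out (adjusted p = 0.0287; the alternatives spanned 0.0287 to 0.690). Ccnd3 was at 92.2, 86.2 and 82.9 CPM in INS-MOCK and at 56.1, 30.4 and 57.1 CPM in INS-SMA, and it fell by 0.86 on the log2 scale (SE 0.25 and, in edgeR, adjusted p = 0.0304). That call was lost without any 1 of the INS-MOCK libraries (adjusted p 0.0698 to 0.0869) and in the gene's only row under the fit on most abundant rows (0.0557). Ccnd1 had 0 to 19 counts in a library and was not tested. Reads of a known gene can lie in rows of assembled transcripts that carry no gene name, so low counts here are no proof of low expression.

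Cdkn1a, which encodes the CDK inhibitor p21, was at 28.6, 26.2 and 27.0 CPM in INS-MOCK and at 165, 181 and 156 CPM in INS-SMA. All INS-SMA libraries were above all INS-MOCK libraries, a 6.14-fold rise (log2 fold change 2.62, SE 0.07, edgeR's adjusted p = 7.16e-06). The count ratio of Cdkn1a to Cdk2, whose kinase p21 binds, was 0.612 to 0.655 in INS-MOCK and 20.6 to 27.9 in INS-SMA, a difference of 5.26 on the log2 scale (p = 0.1 in the exact two-sided test by permutation). Since the groups were already apart for both genes, in opposite directions, this p was fixed in advance and adds no support. The other CIP/KIP member, Cdkn1b (p27), was at 2.60, 1.52 and 4.36 CPM in INS-MOCK and at 2.34, 0 and 3.46 CPM in INS-SMA, and it did not pass (adjusted p = 0.761).

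Ccng1, which encodes cyclin G1, an atypical cyclin, had the smallest adjusted p of the members. It was at 559, 565 and 526 CPM in INS-MOCK and at 1986, 2132 and 2050.45 CPM in INS-SMA, a 3.74-fold rise (log2 fold change 1.90, SE 0.05, edgeR's adjusted p = 5.04e-06). It held 14.8% to 15.5% of all member counts in the INS-MOCK libraries and 45.95% to 47.7% in the INS-SMA libraries. Member counts as a whole were 0.350% ± 0.0044 (SD, n = 3) of named counts in INS-MOCK and 0.455% ± 0.0177 in INS-SMA. With Ccng1 left out these shares were 0.295% to 0.301% and 0.228% to 0.254%, so the direction of the summed share turned. Ccng2, a related cyclin gene, was at 17.3, 18.1 and 17.8 CPM in INS-MOCK and 29.9, 30.7 and 30.1 CPM in INS-SMA (log2 fold change 0.77, SE 0.07). Counts of Ccng1 per count of Ccng2 were 29.5 to 32.3 in INS-MOCK and 66.4 to 69.3 in INS-SMA (p = 0.1 in the exact two-sided test by permutation).

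Other genes of the Cdkn name fell or rose by their own course. Cdkn2c, which encodes the INK4 inhibitor p18, was at 29.7, 25.8 and 33.3 CPM in INS-MOCK and at 6.49, 5.41 and 4.16 CPM in INS-SMA, a log2 fold change of -2.47 (SE 0.21 and, in edgeR, adjusted p = 2.43e-04). Cdkn2a, Cdkn2b, Cdkn2d and Cdkn1c were not analysed here. Cdkn3, a phosphatase that acts on CDKs, was at 60.6, 55.9 and 52.95 CPM in INS-MOCK and at 11.8, 13.4 and 16.2 CPM in INS-SMA (log2 fold change -2.03, SE 0.14). The groups were apart for both genes. Cdkn2aip, which encodes a partner of the ARF tumour suppressor, was at 25.3, 26.8 and 28.0 CPM in INS-MOCK and at 47.9, 71.4 and 65.5 CPM in INS-SMA (log2 fold change 1.21, SE 0.16). Cdkn2aipnl was at 104, 112 and 112 CPM in INS-MOCK and at 88.3, 92.1 and 107 CPM in INS-SMA, and did not pass (log2 fold change -0.19, adjusted p = 0.102), except without INS-SMA replicate 3 (0.0155) and with mitochondrial genes left out (0.0435).

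Of the 6 E2F genes tested, 3 activators and 3 repressors, edgeR called 0, and 0 had an unadjusted p under 0.05. Over all tested genes 28.1% were higher and 27.0% lower. With an SE of 0.52 to 2.27 for E2f1, E2f2, E2f5 and E2f6, 0 calls do not show that these were unchanged. DESeq2 called 0 of the 5 to which it gave an adjusted p. E2f1, an activator of replication genes, ranged widely, at 10.4, 24.0 and 42.4 CPM in INS-MOCK and at 18.0, 9.64 and 18.9 CPM in INS-SMA (log2 fold change -0.73, SE 0.55, edgeR's adjusted p = 0.319). E2f4, the repressor that works with pocket proteins, was tight in both groups, at 55.6, 58.6 and 55.5 CPM in INS-MOCK and at 56.5, 56.3 and 54.9 CPM in INS-SMA. Its log2 fold change was -0.02 (SE 0.05), with a sign that turned with DESeq2 (0.01), without normalisation factors (0.08), under the strict low-count filter (0.02), in the most abundant row (0.15) and without INS-MOCK replicate 2 (0.01). E2f3 was at 5.77 to 8.02 CPM in INS-MOCK and at 8.40 to 9.88 CPM in INS-SMA, without overlap (log2 fold change 0.37, adjusted p = 0.137). E2f2 was at 0.702, 5.60 and 1.32 CPM in INS-MOCK and at 16.3, 0 and 0 CPM in INS-SMA, so that its fold change of 1.09 rested on INS-SMA replicate 1; without that library it was -8.90 (adjusted p = 0.0383; the alternatives spanned 0.0383 to 0.863). E2f5 and E2f6, both repressors, overlapped between the groups, with log2 fold changes of -0.58 and -0.23. E2f6 was at 32.0 to 72.0 CPM in INS-MOCK and at 15.6 to 63.4 CPM in INS-SMA. E2f8 had 51 counts in 1 INS-MOCK library and at most 5 in any other, and was not tested.

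Rbl2, which encodes the pocket protein p130 of resting cells, was at 61.2, 64.6 and 61.9 CPM in INS-MOCK and at 75.6, 79.3 and 91.1 CPM in INS-SMA. The groups did not overlap, and it rose by 0.39 on the log2 scale (SE 0.08 and, in edgeR, adjusted p = 0.00877). Rbl1 (p107) was at 5.74, 2.55 and 0 CPM in INS-MOCK and at 0.0601, 0.964 and 1.44 CPM in INS-SMA and did not pass (adjusted p = 0.427). Rb1 itself had 8 counts in all 6 libraries.

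Cyclins and CDKs with roles outside the division cycle moved in both directions. Ccno, needed for the many cilia of multiciliated cells, was at 1.07, 0.807 and 1.41 CPM in INS-MOCK and at 7.81, 10.05 and 8.56 CPM in INS-SMA, a log2 fold change of 3.00 (SE 0.28 and, in edgeR, adjusted p = 3.51e-04). Ccnb3, a cyclin of meiosis, had 2, 0 and 2 counts in INS-MOCK, all under the floor of 3, and 25, 25 and 27 in INS-SMA. Ccna1, a germ cell cyclin, had 9 to 16 counts in the INS-MOCK libraries and 0, 0 and 13 in the INS-SMA libraries. It did not pass (adjusted p = 0.314), except without INS-SMA replicate 3 (0.00923). Ccnj fell by 0.69 (adjusted p = 7.97e-04; 0.300 in its most abundant row). Ccndbp1, which encodes a binding partner of D-type cyclins and no cyclin, fell by 0.24 (adjusted p = 0.0467), a call lost without any 1 of the 6 libraries (0.0524 to 0.115). It was also lost with the replicate block, without normalisation factors, under either other low-count filter and in the most abundant row (0.0592 to 0.175). Ccny, Ccnyl1 and Ccnjl did not pass, with log2 fold changes of 0.13, -0.24 and -0.67. The adjusted p of Ccny was 0.0805. It passed without INS-SMA replicate 3, with DESeq2, under the strict low-count filter, without normalisation factors and in its most abundant row (0.0115 to 0.0457).

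Cdk5, which with its activators p35 and p39 works in neurons and in beta cells, was at 50.5, 52.8 and 60.6 CPM in INS-MOCK and at 22.8, 28.7 and 13.5 CPM in INS-SMA. It fell by 1.33 on the log2 scale (SE 0.28 and, in edgeR, adjusted p = 0.00951). The p39 gene Cdk5r2 fell as well, with a log2 fold change of -1.25, while the p35 gene Cdk5r1 did not pass (-0.03, adjusted p = 0.986). Cdk17 was at 43.9, 44.2 and 37.0 CPM in INS-MOCK and at 57.7, 66.7 and 63.0 CPM in INS-SMA (log2 fold change 0.58, adjusted p = 0.00376; 0.284 in its most abundant row). Cdk10 rose by 0.30 (adjusted p = 0.0490), a call lost without any library but INS-SMA replicate 1 (0.0512 to 0.122) and with the replicate block, upper-quartile factors, no low-count filter, the most abundant row and mitochondrial genes left out (0.0508 to 0.481). Cdk14 rose from 1.89 ± 0.264 to 4.31 ± 1.99 CPM (SD, n = 3; adjusted p = 0.0402), which was lost without any INS-MOCK library or without INS-SMA replicate 2 (0.0706 to 0.111), with the replicate block (0.0534) and with no low-count filter (0.0585). Its log2 fold change of 1.18 was 0.74 without INS-SMA replicate 2. Cdk16 did not pass, and Cdk18, with 0 to 114 counts in a library, was not tested.

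Of the transcription CDKs, Cdk9, the kinase that releases paused RNA polymerase II, was at 118, 108 and 117 CPM in INS-MOCK and at 191, 165 and 179 CPM in INS-SMA. It rose by 0.64 on the log2 scale (SE 0.07 and, in edgeR, adjusted p = 6.23e-04). Cdk20, grouped with these kinases here without evidence of a part in transcription, rose by 0.71. Cdk19, a kinase of the Mediator complex, was at 153, 154 and 163 CPM in INS-MOCK and at 91.6, 114 and 109 CPM in INS-SMA, and it fell by 0.58 on the log2 scale (SE 0.09). Its cyclin gene Ccnc was at 227, 232 and 210 CPM in INS-MOCK and at 166, 197 and 203 CPM in INS-SMA, apart but short of the threshold (log2 fold change -0.24, adjusted p = 0.0627). Ccnc passed without INS-MOCK replicate 3 (0.0463), with DESeq2 (0.0175), and at 0.0251 to 0.0445 with upper-quartile factors, unnamed rows in the library sizes or mitochondrial genes left out. Cdk12, which phosphorylates RNA polymerase II during elongation, was at 153, 155 and 117 CPM in INS-MOCK and at 109, 189 and 175 CPM in INS-SMA, with overlap (adjusted p = 0.601). Ccnh, the cyclin of the CDK-activating kinase, fell by 0.42 (adjusted p = 0.00911) from 39.2 ± 0.953 to 29.2 ± 2.72 CPM. Its kinase gene Cdk7 had 34 counts in 1 INS-MOCK library and at most 1 in any other.

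Several members varied widely within a group. With a rule set after the values were seen, a spread of at least 5-fold within a group whose mean was at least 5 CPM was found in 5 of 40 eligible members (12.5%) and in 8.39% of eligible tested genes. These members were Ccne1, Ccnk, Ccnt2, Cdk13 and E2f2. Ccnk, the cyclin of Cdk12 and Cdk13, was at 54.3, 89.7 and 74.8 CPM in INS-MOCK and at 2.10, 76.8 and 52.7 CPM in INS-SMA. Cdk13 was at 34.7, 21.8 and 2.39 CPM in INS-MOCK and at 4.69, 67.0 and 51.8 CPM in INS-SMA. Neither passed (adjusted p = 0.602 and 0.499 by edgeR). Ccnt2, a partner of Cdk9, was at 2.60, 23.7 and 18.5 CPM in INS-MOCK and at 2.10, 2.11 and 2.99 CPM in INS-SMA, so the groups overlapped although the test called it lower (log2 fold change -2.63, SE 0.80, adjusted p = 0.0365). That call was lost without any library but INS-MOCK replicate 1 (0.0831 to 0.108) in its most abundant row (0.105) and with the replicate block (0.104). Ccnt1 had 356 counts in INS-MOCK replicate 2 and 0 in every other library.

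The 54 members came from 84 transcript rows, and 22 members had several rows. When rows were fitted by themselves, 10 of 76 tested member rows rose (13.2%) and 16 fell (21.1%), against 15.6% and 14.6% of all 23402 tested rows. All 3 rows of Cdk1 had negative log2 fold changes. Its most abundant row had 3929, 3417 and 3861 counts in INS-MOCK and 653, 932 and 1473 in INS-SMA (log2 fold change -1.81), and the next had 2334, 2113 and 2070 against 301, 460 and 176 (-2.63). Both passed in the row fit, and the third (-0.96) did not. For Cdkn1a the row ENSRNOT00000091731 held 92.6% of counts in INS-MOCK and 98.9% in INS-SMA and rose by 2.68, whereas ENSRNOT00000000628 had 83, 17 and 41 counts against 66, 35 and 13 (-0.00, not passed). For Ccna2 the main row fell by 2.69 and the minor row, with 6.89% of INS-MOCK counts and 19.95% of INS-SMA counts, did not pass (-0.91).

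In 8 members, rows with at least 10% of the gene's counts in a group had log2 fold changes of opposite sign: Ccnh, Ccnj, Ccnt2, Ccnyl1, Cdk10, Cdk16, E2f3 and E2f4. The share of such genes over the whole table was not computed, so this count has no background. Some of the signs were within error of 0, as in rows of Ccnj (0.08, SE 1.38), Cdk16 (0.09, SE 1.40) and E2f4 (0.07, SE 0.13). Ccnh showed opposite rows most plainly. Its row ENSRNOT00000049423 had 930, 850 and 838 counts in INS-MOCK and 226, 450 and 424 in INS-SMA and fell by 1.17 (edgeR's adjusted p = 0.00843). The other row had 11, 9 and 105 counts against 213, 243 and 334 (log2 fold change 2.76, adjusted p = 0.120), so its share of the gene was 4.56% in INS-MOCK and 41.8% in INS-SMA. The fall of Ccnh was thus -0.42 in the gene sum and -1.09 in the most abundant row. In Ccnt2 the row that held 93.5% of INS-MOCK counts had 39, 509 and 408 counts there and 22, 25 and 0 in INS-SMA. The second had 24, 19 and 24 against 13, 21 and 77. Of the other opposite rows, the Cdk16 row ENSRNOT00000064309 passed as lower (-1.24, adjusted p = 0.0335), and none of the rest in Ccnj, Ccnt2, Ccnyl1, Cdk10, E2f3 and E2f4 passed.

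**Figure D3:**
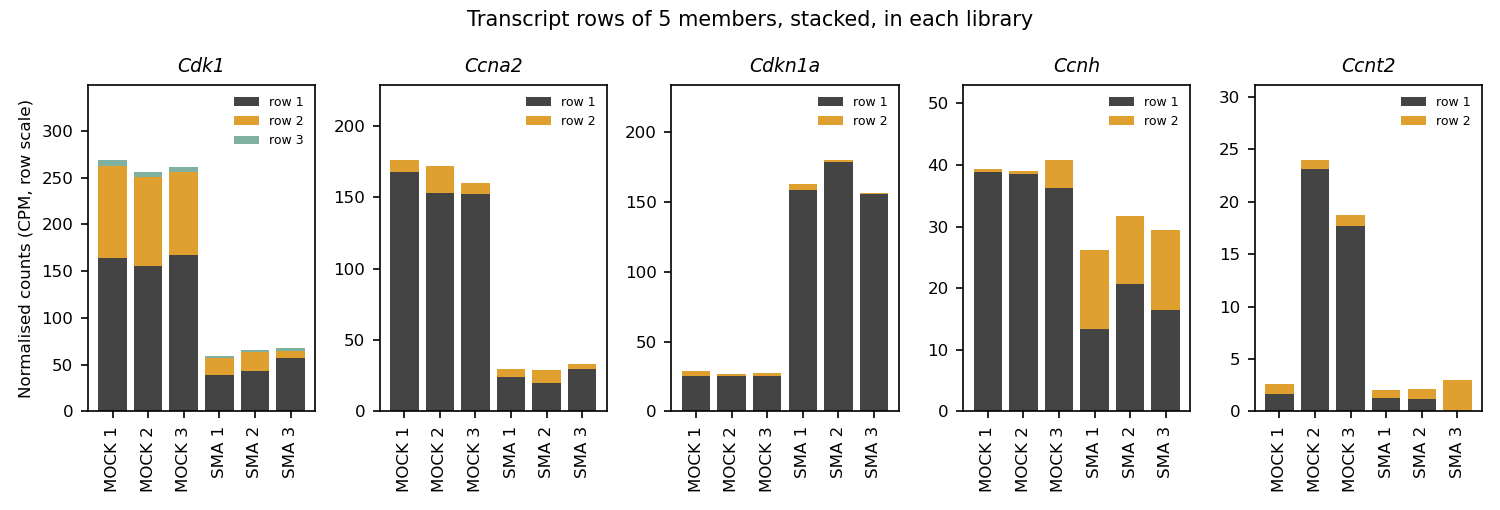
Normalised counts in CPM on the scale of the row fit for the transcript rows of Cdk1, Ccna2, Cdkn1a, Ccnh and Ccnt2, stacked, in each of the 6 libraries; row 1 is the one with most INS-MOCK counts. The main rows of Cdk1 and Ccna2 are lower and that of Cdkn1a is higher in all INS-SMA libraries, the second row of Ccnh is larger in INS-SMA, and row 1 of Ccnt2 is near 0 in INS-MOCK replicate 1 and in INS-SMA.

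Genes that act around these kinases were counted by list, to be read beside the 28.1% higher and 27.0% lower over all tested genes. Among switches of CDK activity, 3 of 8 tested genes rose and 3 fell. The adaptor genes Cks2 (log2 fold change -1.21) and Pkmyt1, which encodes an inhibitory kinase of Cdk1 (-1.54), had the smallest adjusted p values, 3.03e-05 and 3.64e-05 by edgeR. Wee1, the other inhibitory kinase of Cdk1, rose by 0.93. Among genes for the destruction of cyclins and inhibitors, 9 of 19 fell and 6 rose. The ubiquitin-conjugating enzyme gene Ube2c of the anaphase-promoting complex (-1.92) and the ligase subunit gene Skp1 (-1.71) had the smallest adjusted p of the list. Larger falls were called for Anapc11, a subunit of that complex (-3.97, SE 1.01), and for Skp2, whose product marks p27 for destruction (-2.41). Anapc11 was low throughout, at 1.24, 0.583 and 1.20 CPM in INS-MOCK and at 0, 0 and 0.156 CPM in INS-SMA. With INS-SMA near or under the floor of 0.117 to 0.180 CPM, the size of its fall rests on few counts.

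Genes of the S phase wave that E2F factors are known to control fell in 20 of 24 cases, with 1 rise (Tyms, 0.33). The median was -1.07. Mcm7, a subunit of the replicative helicase, went from 146 ± 2.42 to 70.2 ± 1.76 CPM (SD, n = 3), and Pcna, the sliding clamp, from 343 ± 7.62 to 108 ± 7.97 CPM. Of 17 tested mitotic genes, 12 fell and 5 did not pass (median -0.91), with Aurkb at -2.22 and Prc1 at -1.02. Among 8 tested E2F partners and subunits of the DREAM and MuvB complexes, Lin37 rose (0.96) and Tfdp1 (-0.27), Mybl2 and Foxm1 fell. All tested genes had a median of 0.03, with 28.1% higher and 27.0% lower.

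Of 10 tested genes of the DNA damage checkpoint list, 2 rose and 5 fell. For this list and the next, the shares over all tested genes were 28.1% higher and 27.0% lower. Mdm2, a ubiquitin ligase gene, was the rise with the largest fold change, from 118 ± 18.5 to 458 ± 47.8 CPM (SD, n = 3; log2 fold change 1.96). Rad17 rose by 0.46. The checkpoint kinase gene Chek1 had the smallest adjusted p of the list and fell by 1.29, and Chek2 and Atm fell too. The last list joins mitogen response and G1 entry genes with partners of Cdk5 (Cables1, Cables2, Cdk5r1 and Cdk5r2). Of its 11 tested genes 6 rose, Cables1 among them, and the 1 that fell was Cdk5r2. Egr1 (2.78) and Jun (2.58) had the smallest adjusted p. Myc, which drives G1 entry, rose by 1.52.

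**Figure D4:**
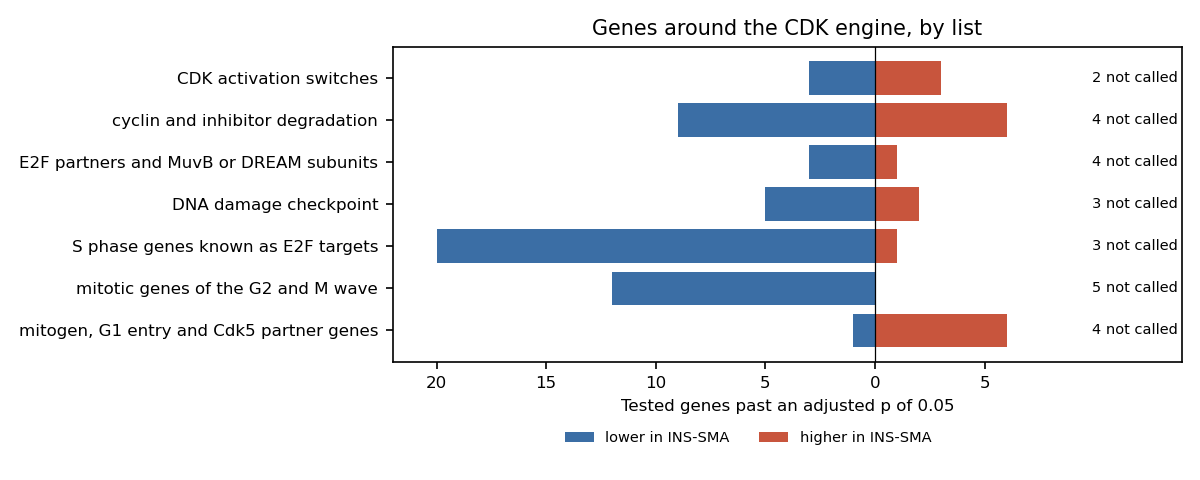
Number of tested genes past an adjusted p of 0.05 in each of 7 gene lists, to the left in blue for lower and to the right in red for higher in INS-SMA, with the number that did not pass at the edge. The S phase list has 20 lower and 1 higher gene and the mitotic list 12 lower genes, while the list of mitogen, G1 entry and Cdk5 partner genes has 6 higher and 1 lower. Over all tested genes 28.1% were higher and 27.0% lower.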

How the data were processed

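RNA sequencing libraries of 3 INS-MOCK and 3 INS-SMA cultures were analysed from 1 table of raw counts per transcript row that the authors deposited, with no replicates pooled. The tools named per the submitters' processing notes are HISAT, HISAT2 and DESeq2, and the builds are rn6 and hg19, all without roles. The annotation, the strand setting and the program that counted reads are not stated. Gene coordinates are those of the table; promoter windows are from RefSeq on GRCr8. Of 101905 rows, 66301 assembled rows name no gene. They held 32.7% to 36.7% of a library and entered neither library sizes nor tests.

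Counts were summed per gene (21553 genes). edgeR 4.0.16 in R 4.3.3 was used with filterByExpr (minimum count 10), TMM factors and the quasi-likelihood F-test with group as the only term, over all 13363 genes kept. SE is the log2 fold change divided by the square root of F. Transcript rows were fitted the same way. No library was a duplicate of another: within groups, pairs gave chi-square values of 45.0 to 58.6 per degree of freedom. P-values measure the spread between these libraries. On counts simulated for these 13363 genes, the test recovered 18% of changes of size 1 and 69% of changes of size 2 (log2), with 200 genes changed, and called 4 unchanged genes. The changed genes were drawn from those with a mean of at least 5 CPM. In the data 7359 genes were called, far more than were changed in the simulation. The adjustment was thus stricter there, and these shares do not carry over to the comparison itself.

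The members and gene lists were chosen with earlier results of these data known. Library values are given for Cdk1, Ccna2, Ccng1 and Cdkn1a, for called members with a log2 fold change of at least 1 in size and a mean of at least 5 CPM, and for the member with most counts in each role. From each list the 2 called genes with the smallest adjusted p are named. A gene of the checkpoint list is not reported here and is left out of its counts. Other values were chosen after they were seen. Alternatives were other normalisations, DESeq2 1.42.0, other low-count filters and library sizes, the most abundant row, mitochondrial genes left out, a replicate block and leaving out each library.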

Additional observations from a re-analysis of the deposited data

Results flagged for a closer look

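Rows of assembled transcripts without a gene name lie outside all comparisons made here. They held 32.82% ± 0.167 (SD, n = 3) of the counts of a library in INS-MOCK and 36.24% ± 0.477 in INS-SMA, so their share was above the level of the control libraries. Every INS-SMA library was above every INS-MOCK library. Whether reads of cyclin or CDK genes lie in these rows was not tested.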

How the results depend on the processing

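Of the 29 called members, 20 kept their call and direction in all 16 alternatives. Ccnb3 and Cdk6 kept both in the 15 that gave them a value, since the strict low-count filter removes them. Without any 1 library 24 kept both, and 0 turned in sign. The 7 that lost a call somewhere were Ccnd3, Ccndbp1, Ccnj, Ccnt2, Cdk10, Cdk14 and Cdk17. Without 1 library, 11 to 13 members rose and 13 to 16 fell. With the replicate block 11 rose and 14 fell, and 17 member rows were called against 26. The block took the calls of Ccndbp1, Ccnt2, Cdk10 and Cdk14 (adjusted p 0.0534 to 0.104). Libraries of the same number correlated at -0.0155, -0.0089 and -0.0071 in their deviations from group means. Libraries of different number correlated at -0.0220 to 0.0310. Correlations this small cannot show whether cultures of the same number were prepared together. Signs turned for members that had not passed: Cdk16 was at 0.18 in its most abundant row, and E2f2 at -3.92 with the block. E2f4 was at 0.076 without normalisation factors, 0.0071 with DESeq2, 0.019 under the strict filter and 0.15 in the most abundant row. Without 1 library Cdkn1b ranged from -1.29 to 0.039, E2f2 from -8.90 to 2.44, E2f4 from -0.030 to 0.0070, E2f5 from -0.82 to 0.015 and E2f6 from -0.51 to 0.18. The cause was not tested. With 3 libraries a group, low members such as Ccnb3 and Cdk14 rest on few counts.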
